A study of Mus musculus with 6 samples.

Results

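Glycolysis was examined through 10 genes out of the 20822 in the count table, namely the glucose transporter Slc2a1 and the enzyme genes Hk1, Hk2, Pfkp, Pfkl, Pfkfb3, Aldoa, Pgk1, Pkm and Ldha. They were chosen by name, for their place in the pathway and with earlier results of these data known, and each was found in the table. The cells came from mouse retinas taken at postnatal day 14 in the oxygen-induced retinopathy (OIR) model, in which pups are kept in high oxygen, lose retinal capillaries and then regrow vessels in room air. Retinal cells were enriched for CD31, a surface protein of endothelial cells (ECs), and profiled in droplets by Drop-seq, which tags each captured mRNA with a unique molecular identifier (UMI). The 2 genotypes compared were eNOS+/+ (C57BL/6J) and eNOS-/-, which lacks the endothelial nitric oxide synthase encoded by Nos3, each with 3 replicates of 3 to 5 pooled retinas. All 6 suspensions passed through OIR and the CD31 beads, so neither a room-air retina nor an unenriched one was compared, and the deletion was germline and present in every cell type.

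Slc2a1 encodes GLUT1, the carrier through which glucose enters the endothelium of the blood-retina barrier and passes on to the neural retina. Hexokinase traps glucose in the cell, phosphofructokinase sets the pace of the pathway, and aldolase, phosphoglycerate kinase and pyruvate kinase carry the carbon on to pyruvate, which lactate dehydrogenase reduces to lactate. Rod photoreceptors are known for aerobic glycolysis, the making of lactate while oxygen is present, and sprouting ECs are known to draw most of their ATP from glycolysis, with PFKFB3 as an activator of phosphofructokinase.

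The authors' labels put 8944 cells in 10 types, of which 5925 were ECs in 3 subtypes: 1428 Tip ECs, 3335 Structural ECs and 1162 Proliferative ECs. The paper's text gives fewer ECs than these deposited labels do, and the reason was not tested. The other labels were Rods (1508 cells), Neurons (690), Immune (216), Mural (214), Neuroglia (184), Optc+ (157) and Cones (50). UMIs were summed per cell type and replicate and divided by the total of that sum, as CPM (UMIs of a gene per 1000000 UMIs), so a level here is a share of the captured mRNA of a cell type and not an amount per cell. Sums of fewer than 10 cells were left out of means, which removed the 7 rods of eNOS+/+ replicate 2 and left cones with 1 replicate. The libraries held 617246 to 3350799 UMIs each, EC sums held 488367 to 2425603, and the sum of rods in eNOS-/- replicate 3 held only 7184, where 3 UMIs already make 418 CPM. The Neuron sums of eNOS+/+ replicate 2 and eNOS-/- replicate 3 held 5178 and 5975 UMIs, where 3 UMIs make 579 and 502 CPM. In the Neurons of eNOS-/- replicate 3, 9 mural markers summed to 6862 CPM, against 0 to 376 CPM in the other Neuron sums. The summed level of 10 endothelial markers ran from 7603 to 9005 CPM in ECs, and 10 rod markers ran from 45385 to 84772 CPM in rods. Nos3 itself did not separate the genotypes, with 19.4, 36.6 and 23.6 CPM in ECs of eNOS+/+ and 21.2, 16.1 and 32.8 CPM in ECs of eNOS-/-, so its UMIs do not check the genotype labels.

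The promoters of the 10 genes were read from RefSeq (GRCm38.p6), as a reference sequence that is not specific to any cell type. The search was for the core of the hypoxia response element, ACGTG or GCGTG on either strand, in the 250 bases before each annotated start. It was found before 13 of the 16 starts and before at least 1 start of all 10 genes, against 38.6% of the 32851 mouse promoter windows of the same length, which have a median GC content of 52.4% where those of the 10 genes have 62.8%. Both motifs hold a CG pair, so GC content bears on the share. The windows printed are those of Slc2a1 (chr4:119108495-119108744, plus strand) and Pfkfb3 (chr2:11553930-11554179, minus strand), whose levels were higher in ECs than in rods, and of Pgk1 (chrX:106186850-106187099, plus strand) and Ldha (chr7:46845554-46845803, plus strand), whose levels were lower in ECs than in Neurons and Neuroglia. Each runs 5′ to 3′ on the strand of its gene, and capitals mark the motif on either strand:
Slc2a1: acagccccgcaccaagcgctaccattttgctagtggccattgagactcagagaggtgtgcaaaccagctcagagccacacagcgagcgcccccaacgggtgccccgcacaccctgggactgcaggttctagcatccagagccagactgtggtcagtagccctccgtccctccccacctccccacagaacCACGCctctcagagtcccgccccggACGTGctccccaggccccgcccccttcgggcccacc
Pfkfb3: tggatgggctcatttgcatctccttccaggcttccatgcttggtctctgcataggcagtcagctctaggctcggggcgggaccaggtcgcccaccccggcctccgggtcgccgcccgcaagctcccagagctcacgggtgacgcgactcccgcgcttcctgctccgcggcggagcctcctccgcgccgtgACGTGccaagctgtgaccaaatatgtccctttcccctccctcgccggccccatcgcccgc
Pgk1: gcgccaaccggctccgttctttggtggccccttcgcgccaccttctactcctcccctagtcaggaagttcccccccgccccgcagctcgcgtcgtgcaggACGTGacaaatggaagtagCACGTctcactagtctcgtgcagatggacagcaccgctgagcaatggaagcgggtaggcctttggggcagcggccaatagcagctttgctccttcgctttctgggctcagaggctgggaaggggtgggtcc
Ldha: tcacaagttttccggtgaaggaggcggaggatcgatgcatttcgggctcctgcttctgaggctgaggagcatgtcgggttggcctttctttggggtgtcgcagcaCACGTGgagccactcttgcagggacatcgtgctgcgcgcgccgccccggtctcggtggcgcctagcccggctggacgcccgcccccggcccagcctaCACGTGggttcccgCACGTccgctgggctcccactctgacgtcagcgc
Every window printed holds the motif, so the printed windows cannot compare the genes higher in ECs with those lower in ECs. Hk1, Aldoa and Pkm, lower in ECs than in rods, each had 1 start with 0 matches, and those windows are not printed. The windows of the Aldoa starts 126799254 and 126799178 overlap. Ldha had 5 matches because CACGTG counts on both strands, and its second annotated start had 1 match. A match is a run of letters and was not tested for binding.

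Slc2a1, the glucose carrier (chromosome 4, 119108711 to 119137983, plus strand), stood highest in ECs, and within them in Structural ECs. In Structural ECs it measured 1390, 1263 and 1267 CPM in the replicates of eNOS+/+ and 1504, 1020 and 1065 CPM in those of eNOS-/-. In Tip ECs it measured 521, 684 and 715 CPM and then 718, 658 and 870 CPM. Every Structural EC sum was thus above every Tip EC sum. Proliferative ECs lay between them at 848 ± 100.2 CPM (SD, n = 6). Outside the endothelium the order ran from Neuroglia (574 ± 229 CPM, n = 5) and Optc+ cells (387 ± 48.9, n = 5) to Rods (272 ± 155, n = 5), Immune cells (81.3), Neurons (80.6) and Mural cells (75.9). Neighbours in this order did not differ by more than the spread of their within-replicate differences, except Structural over Proliferative ECs and Rods over Immune cells.

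Endothelial mRNA was also counted in rods and Neuroglia, beside Slc2a1. In rods Slc2a1 measured 104 and 524 CPM in eNOS+/+ replicates 1 and 3 and 225, 228 and 278 CPM in the replicates of eNOS-/-. The 10 endothelial markers stood in the same rod sums at 8.92% and 45.0% and then 14.8%, 21.4% and 9.82% of their level in ECs. The rod sum with most Slc2a1 was thus the one with most endothelial mRNA. The EC level of Slc2a1 times that ratio averages 199 CPM, beside a mean of 272 CPM counted. That mean gives shallow rod sums the same weight as deep ones. All rods together held 131 UMIs of Slc2a1 among 656387, which is 200 CPM (95% counting interval 167 to 237). The ratio rests in part on Pecam1, the gene of CD31 and so of the bead antigen, which stood in rods at 53.0% of its EC level. With the other 9 markers the product is 33.2, 381, 81.8, 150.0 and 37.1 CPM in the same order, 137 CPM on average, and below the Slc2a1 counted in each of the 5. The last of these counts, 278 CPM in eNOS-/- replicate 3, lay under the 418 CPM that 3 UMIs make there. In Neuroglia the product averages 234 CPM with Pecam1 and 220 CPM without it, where Slc2a1 measured 574 CPM. In the reverse direction, rod markers in ECs stood at no more than 1.10% of their level in rods, which would bring at most 2.51 CPM of Slc2a1. Whether this mRNA came from free RNA or from cells captured together was not tested.

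Of the hexokinases, which phosphorylate glucose on entry, Hk1 was highest in rods and Hk2 was near 0 in ECs. Hk1 (chromosome 10, 62268855 to 62379908, minus strand) measured 269 ± 87.0 CPM in rods (SD, n = 5), which exceeded the next type, Neurons at 134 ± 94.1 CPM (n = 6), beyond the spread. In ECs it measured 43.7, 70.1 and 52.5 CPM in eNOS+/+ and 60.0, 70.1 and 32.8 CPM in eNOS-/-. The rod level was 5.19 times the EC level and was higher in 5 of 5 replicates. An annotated antisense gene, Hk1os, is listed apart in the count table. Hk2 (chromosome 6, 82725025 to 82774454, minus strand), the inducible hexokinase, was close to absent from ECs, with 22 UMIs among 8233487. Those 22 UMIs came to 0.432 to 5.77 CPM across replicates, and 14 of them were in eNOS-/- replicate 2. Hk2 measured 143 ± 100.0 CPM in Immune cells (n = 5), 122 ± 135 CPM in Neurons (n = 6) and 72.7 ± 44.3 CPM in Rods (n = 5), and neighbours in that order did not differ beyond their spread. The 33 cones of eNOS-/- replicate 2, the only cone sum of at least 10 cells, gave 348 CPM from 11 UMIs. No UMI of Hk2 was counted in Mural cells or Neuroglia, where 3 UMIs would make 31.1 to 149 CPM and 50.0 to 431 CPM per sum.

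Of the genes for phosphofructokinase, Pfkp encodes the platelet subunit and Pfkl the liver subunit of the enzyme that commits sugar to glycolysis. Pfkp (chromosome 13, 6579768 to 6648777, minus strand) was a gene of Neurons and Neuroglia. Neurons had 2093, 2124 and 1167 CPM in eNOS+/+ and 1727, 2371 and 502 CPM in eNOS-/-, where the lowest value came from 10 cells. Neuroglia followed at 826 ± 366 CPM (SD, n = 5) and Rods at 306 ± 110 CPM (n = 5), and each step in this order was larger than its spread. ECs had 86.1, 130, 110, 100, 200 and 121 CPM in the order of the replicates. Neurons thus exceeded ECs 13.4-fold and Neuroglia 6.61-fold. Pfkl (chromosome 10, 77986947 to 78010083, minus strand) showed a flatter order, from 175 ± 126 CPM in Neurons to 33.1 ± 21.4 CPM in Mural cells, and ECs at 50.1 to 64.7 CPM were below rods in 5 of 5 replicates.

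Pfkfb3, whose product raises fructose 2,6-bisphosphate and so activates phosphofructokinase, was the enzyme gene with a higher mean in ECs than in rods. It lies on chromosome 2, 11471433 to 11554077, on the minus strand. Tip ECs measured 73.7, 102 and 101 CPM in eNOS+/+ and 97.7, 90.8 and 140 CPM in eNOS-/-. Structural ECs measured 44.9, 44.5 and 66.8 CPM and then 43.6, 53.7 and 44.9 CPM, so the Tip EC range lay wholly above theirs. Rods had 10.6 ± 13.4 CPM (n = 5), from 0 to 31.0, and ECs exceeded them 6.08-fold and in 5 of 5 replicates. All rods together held only 10 UMIs of Pfkfb3 among 656387. In the rods of eNOS+/+ replicate 3 and eNOS-/- replicate 3, 3 UMIs make 143 and 418 CPM. EC sums held 53.3 to 79.9 CPM, so those rod sums were too shallow to rank the gene. The endothelial markers in rods, taken at the EC level of Pfkfb3, would bring 13.2 CPM on average with Pecam1 and 9.30 CPM without it, close to the 10.6 CPM counted. Neurons had 31.4 ± 29.6 CPM (n = 6), below ECs in 5 of 6 replicates, a difference within its spread. Immune cells varied from 0 to 165 CPM, with a mean of 63.2 CPM beside 64.4 CPM in ECs of the same replicates, and could not be ranked against ECs.

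The genes of the middle of the pathway were lower in ECs than in neural cells. Aldoa, the aldolase of most tissues (chromosome 7, 126795234 to 126800751, minus strand), measured 1008 ± 314 CPM in Neurons (n = 6) and 727 ± 280 CPM in Rods (n = 5), against 131, 171 and 154 CPM in ECs of eNOS+/+ and 118, 179 and 274 CPM in ECs of eNOS-/-. ECs were lower than Neurons, Rods, Neuroglia, Mural, Immune and Optc+ cells in every replicate that had both. Pgk1, which makes the first ATP of the pathway (chromosome X, 106187100 to 106203699, plus strand), stood at 589 ± 207 CPM in Neurons and 511 ± 76.1 CPM in Neuroglia. ECs, with 81.6 to 142 CPM, were lower than Neurons in 6 of 6 replicates and than Neuroglia in 5 of 5, by 5.02-fold and 4.49-fold. The lowest Neuron value, 193 CPM in eNOS+/+ replicate 2, was under the 579 CPM that 3 UMIs make there. In rods Pgk1 ranged from 47.6 to 375 CPM and was above ECs in 4 of 5 replicates, a difference within its spread.

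Pkm and Ldha, the genes of pyruvate kinase and of the lactate dehydrogenase subunit that favours lactate, had their highest means over replicates in rods. Pkm (chromosome 9, 59656368 to 59679375, plus strand) measured 1095 and 857 CPM in the rods of eNOS+/+ replicates 1 and 3 and 1287, 937 and 1392 CPM in those of eNOS-/-. ECs held 344 to 404 CPM, below the rods of their own replicate in 5 of 5. Neurons had 1002 ± 462 CPM (SD, n = 6) and exceeded rods in 3 of 5 replicates, so the order of these types lay within its spread. Pkm gives the PKM1 and PKM2 forms by splicing, which a sum of UMIs per gene does not separate. Ldha (chromosome 7, 46841475 to 46855627, plus strand) measured 1520 and 572 CPM in rods of eNOS+/+ and 1356, 1328 and 1392 CPM in rods of eNOS-/-. In ECs it measured 261, 279 and 329 CPM and then 257, 378 and 401 CPM, so no EC sum reached the lowest rod sum. That lowest rod sum, of eNOS+/+ replicate 3, was the one with endothelial markers at 45.0% of their EC level. Neighbours in the order Rods, Neurons (915 ± 326 CPM) and Neuroglia (851 ± 394 CPM) did not differ in Ldha beyond their spread. The 33 cones had 1140 CPM of each gene.

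**Figure D1:**
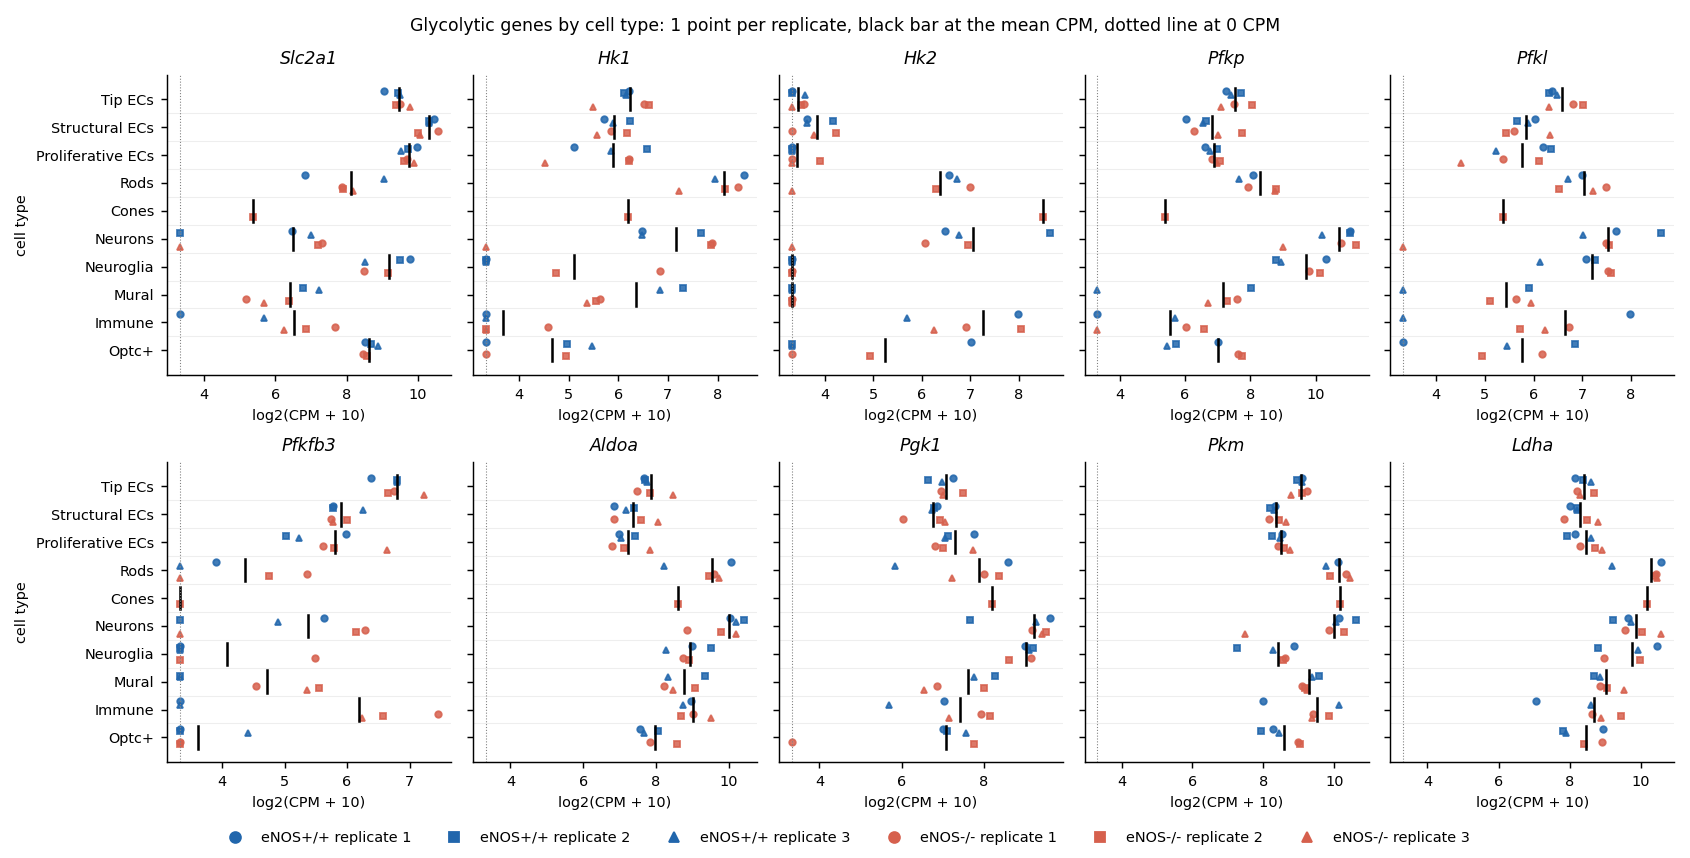
Level of each of the 10 genes by cell type, as log2(CPM + 10) on the x axis, with 1 point per replicate (blue eNOS+/+, red eNOS-/-), a black bar at the mean and a dotted line at 0 CPM. Slc2a1 has its highest means in the EC subtypes and Pfkfb3 in Tip ECs. Pfkp has its highest in Neurons and then Neuroglia, and Hk1 and Ldha in Rods, while Hk2 lies at or near 0 in ECs.

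The number of genes lower or higher in ECs was read against all genes. Cell types had been clustered by the authors from these same UMIs, so these comparisons are given as counts without a test. Of 7266 genes with a mean of at least 20 CPM, 26.5% were higher in ECs than in rods in all 5 replicates and 9.81% were lower in all 5. Of the 10 glycolytic genes, 2 were higher in all 5 (Slc2a1 and Pfkfb3) and 6 were lower (Hk1, Pfkp, Pfkl, Aldoa, Pkm and Ldha). Their median difference was -1.35 on the log2(CPM + 10) scale, where that of all genes was 0.47. Against Neurons, 20.3% of 7528 genes were higher in ECs in all 6 replicates and 4.58% lower, and of the 10 genes 1 was higher (Slc2a1) and 4 were lower (Pfkp, Aldoa, Pgk1 and Ldha). Those 6 replicates include the shallow Neuron sums of eNOS+/+ replicate 2 and eNOS-/- replicate 3. Against Neuroglia, 19.0% of 7354 genes were higher in all 5 replicates and 5.62% lower, and of the 9 glycolytic genes at that level 2 were higher (Slc2a1 and Pfkfb3) and 5 were lower (Pfkp, Pfkl, Aldoa, Pgk1 and Ldha). Rod mRNA in ECs would add at most 14.6 CPM of Ldha and 10.3 CPM of Pkm to an EC sum, and would narrow these differences. Pfkfb3 had 1 UMI among 136364 in Neuroglia, where 3 UMIs make 50.0 to 431 CPM per sum. Its direction against Neuroglia, as against rods, thus rests on few counts.

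**Figure D2:**
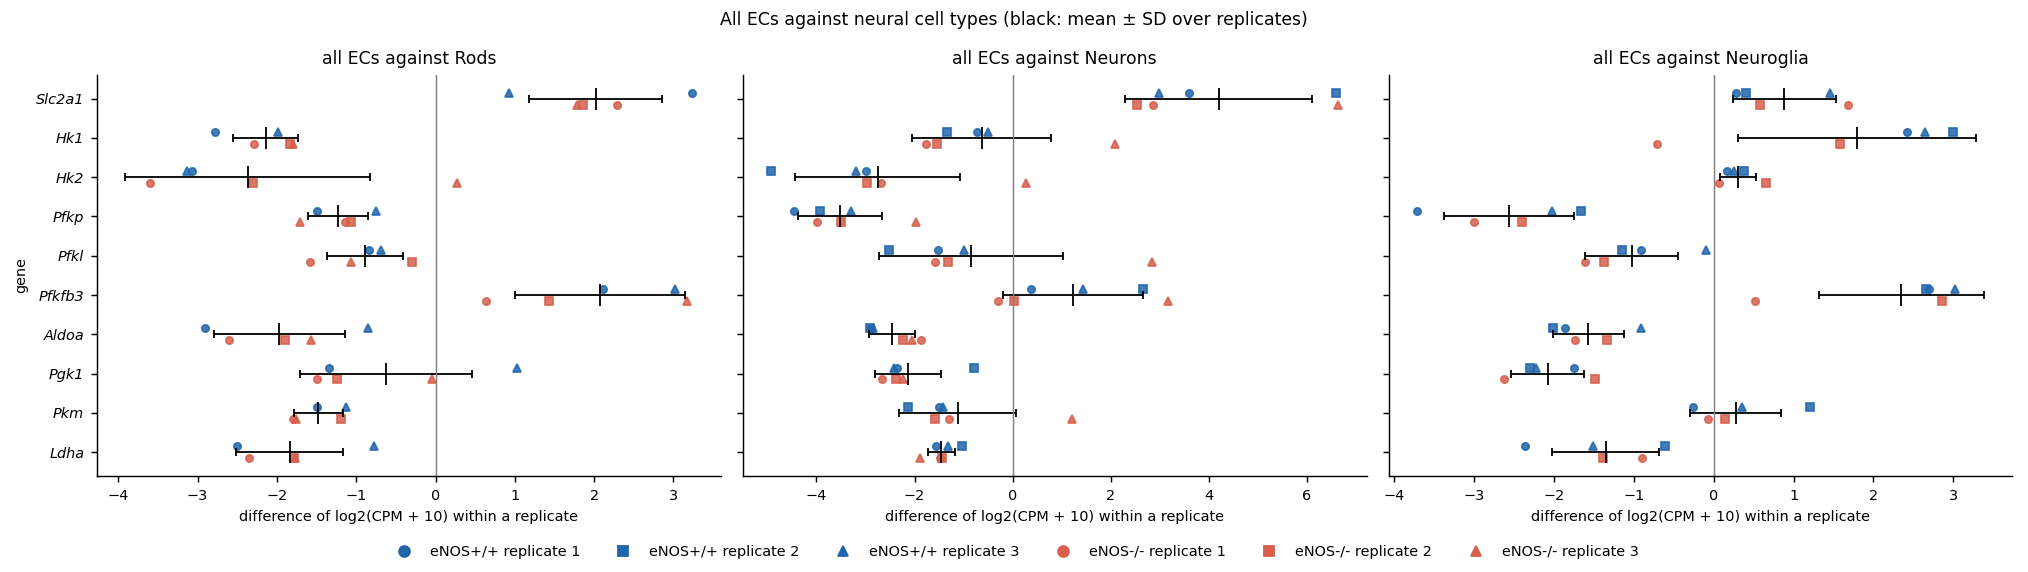
Difference of log2(CPM + 10) between ECs and Rods, Neurons or Neuroglia of the same replicate, with 1 point per replicate (blue eNOS+/+, red eNOS-/-) and the mean ± SD in black. Slc2a1 lies to the right of 0 in every replicate of the 3 panels, and Pfkp, Aldoa and Ldha lie to the left in every replicate.

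Within the endothelium, transporter and enzymes went opposite ways between Tip and Structural ECs. Slc2a1 was 1.80-fold higher in Structural ECs, in 6 of 6 replicates. Pfkfb3 was 2.03-fold, Pfkp 1.70-fold, Pkm 1.64-fold and Aldoa 1.42-fold higher in Tip ECs, each in 6 of 6 replicates. Pfkl was 1.79-fold higher in Tip ECs in 5 of 6. For Hk1, Pgk1 and Ldha the difference between Tip and Structural ECs did not exceed its spread, and Hk2 had too few UMIs in both for a fold. Over 6747 genes at 20 CPM or more, 8.54% were higher in Tip ECs in all 6 replicates and 9.16% were lower, against 4 and 1 of 9 glycolytic genes.

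Between Proliferative and Structural ECs fewer of the genes went the same way in every replicate. Slc2a1 was again lower in 6 of 6, by 1.48-fold, while Pgk1 was 1.48-fold and Pkm 1.12-fold higher in 6 of 6. All genes gave 8.54% higher and 6.78% lower over 6917 genes, and the 9 glycolytic genes 2 and 1. Between Tip and Proliferative ECs, Pfkfb3, Pfkp, Aldoa and Pkm were higher in Tip ECs in 6 of 6 replicates, by 2.18, 1.63, 1.56 and 1.47-fold, and Slc2a1 was lower in 6 of 6, within its spread. The shares over 6774 genes were 10.4% higher and 12.9% lower, against 4 and 1 of 9. The Tip EC pattern therefore held against both other subtypes for those 4 enzyme genes.

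Markers of other cell types differed between the subtypes too, and their part in the folds was not tested. Markers of red blood cells summed to 34.9 to 22522 CPM in Structural ECs and to 13.8 to 400 CPM in Tip ECs, with eNOS+/+ replicate 1 the lowest in both. The 9 neuroglia markers summed to 479 to 1324 CPM in Structural ECs and 212 to 561 CPM in Tip ECs, and the 9 immune markers to 79.4 to 336 CPM and 10.7 to 69.1 CPM. The 9 mural markers summed to 32.3 to 3868 CPM and 13.8 to 238 CPM, the highest in both from eNOS-/- replicate 3. Over the ECs without a UMI of Hbb-bs, a beta globin gene, none of the folds between Tip and Structural ECs moved by more than its replicate SD. Tip and Proliferative ECs were also the deeper sampled cells, with medians of 1007 and 964 UMIs per cell against 491 in Structural ECs.

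**Figure D3:**
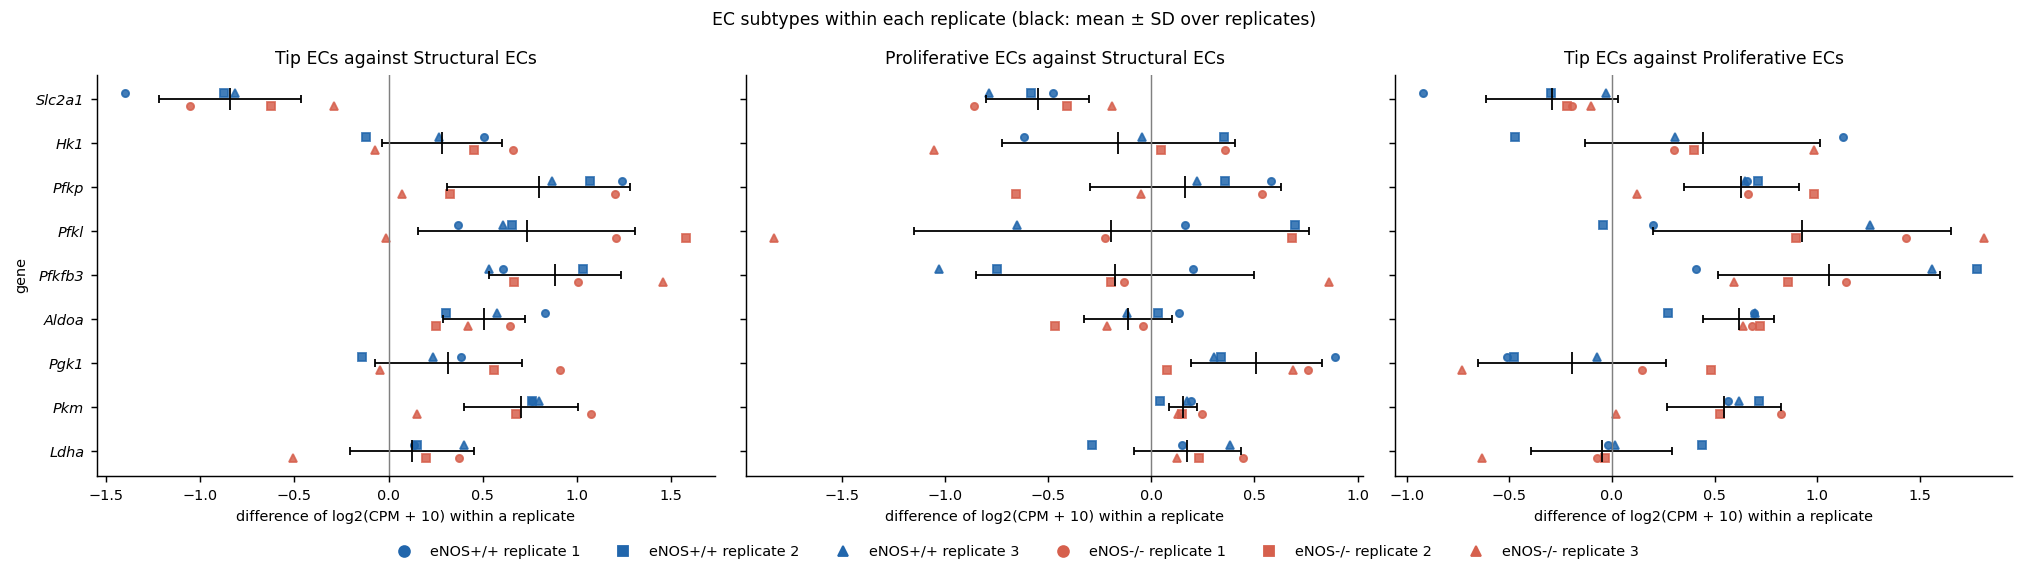
Difference of log2(CPM + 10) between EC subtypes of the same replicate for 9 genes (Hk2 is left out for its low count), with 1 point per replicate (blue eNOS+/+, red eNOS-/-) and the mean ± SD in black. Slc2a1 lies left of 0 and Pfkfb3, Pfkp, Aldoa and Pkm lie right of 0 for Tip ECs against either other subtype.

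The same contrasts appeared in the share of cells with at least 1 UMI once every cell was thinned to 500 UMIs. These shares come from the same UMIs, with cells pooled over replicates and genotypes, so they carry no spread between replicates. Slc2a1 was then found in 33.7% of 3545 ECs and 7.36% of 421 rods, before thinning in 43.6% and 6.37%. Cldn5, an endothelial gene that rods should lack, was found in 46.0% of the same thinned ECs and 4.75% of the same thinned rods. Ldha was found in 13.7% of thinned ECs and 45.8% of rods, and Pkm in 16.3% and 38.2%. Thinning left out the 2380 ECs and 1087 rods with fewer than 500 UMIs, among them 337 of 1428 Tip ECs and 1688 of 3335 Structural ECs. Between EC subtypes, Slc2a1 was found in 26.9% of thinned Tip ECs and 39.5% of Structural ECs, whereas before thinning the order was the other way, at 45.4% and 41.4%. Pkm was found in 23.0% and 11.8% and Pfkfb3 in 4.67% and 2.37% of thinned Tip and Structural ECs.

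No glycolytic gene was called different between the genotypes. edgeR's quasi-likelihood test on UMI sums of ECs tested 9 of the 10 genes, since Hk2 failed the filter on low counts, and called none at a Benjamini-Hochberg adjusted p under 0.05. Over all genes it called 2 of 9483, which is 0.0211%, with 548 at an unadjusted p under 0.05, none of them among the 9. The 2 were the gene model AI506816, lower in eNOS-/-, and the immunoglobulin gene Igkc, higher. Slc2a1 measured 1062, 955 and 1005 CPM in ECs of eNOS+/+ and 1137, 852 and 987 CPM in ECs of eNOS-/-, ranges that overlapped. Its log2 fold change, eNOS-/- over eNOS+/+, was -0.03 (SE 0.20), with an adjusted p of 0.993. Across the 9 genes log2 fold changes ran from -0.07 for Pgk1 to 0.38 for Pfkp, with SEs of 0.18 to 0.28 and adjusted p of 0.908 or more. Their median was 0.06, beside 0.01 over all genes.

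The subtypes gave the same picture at lower depth. In Tip ECs 1 gene of 5510 was called (0.0181%, AI506816, with 273 at an unadjusted p under 0.05), in Structural ECs 2 of 7577 (0.0264%, AI506816 and Igkc, 418), and in Proliferative ECs 1 of 4607 (0.0217%, AI506816, 294). None of the 9 glycolytic genes tested in each was called or reached an unadjusted p under 0.05. In Tip ECs all 9 log2 fold changes were above 0, from 0.02 to 0.44, with SEs of 0.24 to 0.35. They come from the same 6 sums, so 9 genes on the same side are not 9 separate observations. DESeq2 called 3, 2, 3 and 1 genes in ECs, Tip, Structural and Proliferative ECs, and no glycolytic gene.

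Pfkp in Structural ECs had the widest gap. It measured 54.9, 89.1 and 83.1 CPM in eNOS+/+ and 68.1, 203 and 120 CPM in eNOS-/-, so the ranges overlapped and eNOS-/- replicate 2 stood highest. The log2 fold change was 0.78 (SE 0.37), with an adjusted p of 0.895 by edgeR's quasi-likelihood test and an unadjusted value of 0.0504. Without eNOS-/- replicate 2 it was 0.22. That replicate also carried the most neural mRNA in Structural ECs. Its neuron markers stood at 2.94% of their level in Neurons, against 0.107% to 0.445% in the other replicates, and 2371 CPM of Pfkp in its Neurons times that ratio comes to 69.6 CPM. The part of this mRNA in the difference was not tested.

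In rods the test held 2 replicates of eNOS+/+ and 3 of eNOS-/-, and in Neurons 3 and 3. It called 1 of 3121 genes in rods (0.032%, Atp5o, with 37 at an unadjusted p under 0.05, and 0 by DESeq2) and 0 of 982 in Neurons (0%, with 41 at an unadjusted p under 0.05, and 0 by DESeq2). The 9 glycolytic genes tested in rods had log2 fold changes of -0.15 to 0.51 with SEs of 0.54 to 0.76, and the 5 tested in Neurons -0.63 to 0.33 with SEs of 0.42 to 0.47. These errors were larger than those in ECs, so smaller differences were not detectable in rods and Neurons. The test of whether the genotype difference itself varied between Tip and Structural ECs, or between Proliferative and Structural ECs, called 0 of 7019 genes in each case (0%), with 275 and 229 at an unadjusted p under 0.05. The least unadjusted p among the 9 glycolytic genes in these tests was 0.0780, for Slc2a1, whose log2 fold change was 0.33 (SE 0.19) higher in Tip than in Structural ECs, and its adjusted p was 0.998. Leaving out 1 library at a time moved that value from 0.17 without eNOS+/+ replicate 1 to 0.55 without eNOS-/- replicate 1. With 1 library left out, unadjusted p fell under 0.05 for Slc2a1 and Pfkp without eNOS-/- replicate 1, for Slc2a1 without eNOS+/+ replicate 3, for Pfkl without eNOS-/- replicate 3 and for Pfkfb3 without eNOS+/+ replicate 1, and every adjusted p was 0.843 or more by edgeR.

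**Figure D4:**
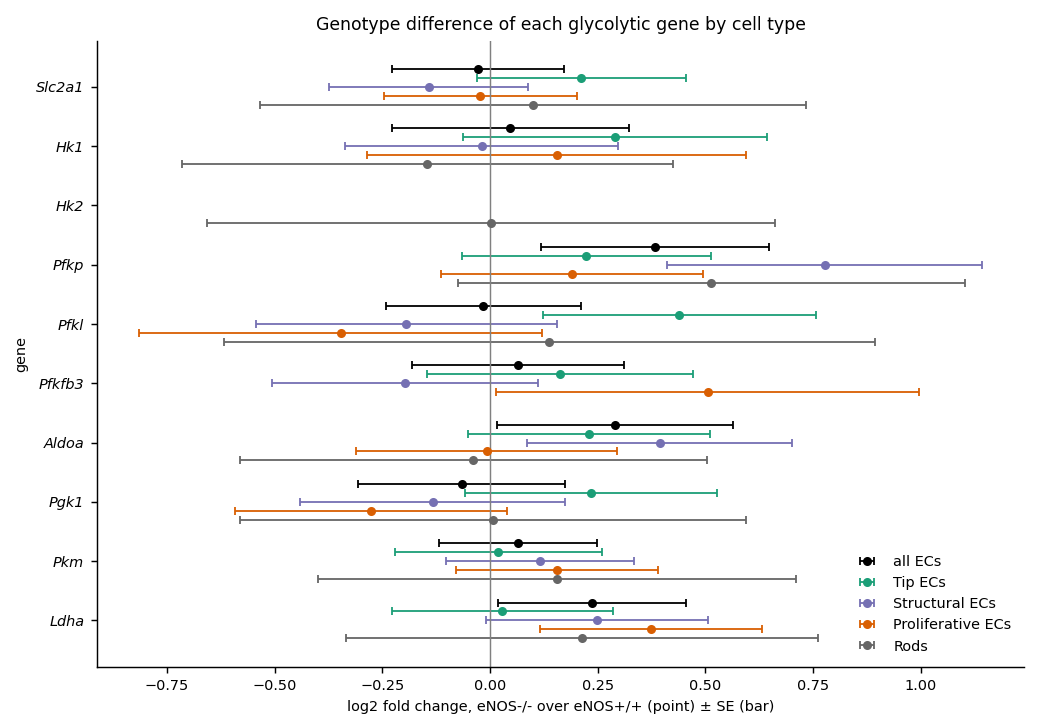
Log2 fold change of each gene, eNOS-/- over eNOS+/+, as a point with its SE as a bar, in all ECs, the 3 EC subtypes and Rods, for the genes that passed the filter on low counts. The widest gap is that of Pfkp in Structural ECs at 0.78, and no gene was called.

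Other steps of glycolysis were more often lower than higher in ECs. Of 20 such genes 17 were in the table and 10 reached 20 CPM in the comparison with rods, where 1 was higher in ECs in all 5 replicates (Bpgm, which makes 2,3-bisphosphoglycerate) and 5 were lower (Aldoc, Tpi1, Gapdh, Eno1 and Pfkfb2), beside 26.5% and 9.81% of all genes. Red blood cell markers summed to 24.3 to 8529 CPM in ECs and 0 to 336 CPM in rods. In eNOS+/+ replicate 1 they were lower in ECs than in rods. Their part in the level of Bpgm was not tested. Gapdh, the dehydrogenase of the middle of the pathway, measured 575 CPM in ECs and 1316 CPM in rods. Between Tip and Structural ECs, 4 of 7 were higher in Tip ECs in all 6 replicates, beside 8.54% of all genes: Gapdh at 624 and 492 CPM, Gpi1, glucose phosphate isomerase, at 270 and 207 CPM, Tpi1, triose phosphate isomerase, at 179 and 117 CPM, and Pgam1, phosphoglycerate mutase, at 106 and 80.2 CPM. Ldhb, the lactate dehydrogenase subunit that favours pyruvate, was lower in Tip ECs in 6 of 6, at 20.3 and 46.2 CPM. Near-identical copies of Gapdh, Aldoa, Pgk1, Pkm and Ldha exist in the mouse genome, and UMIs that matched several places could be split or lost, so their levels are uncertain to that extent.

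Transporters for glucose and lactate other than Slc2a1 were mostly below that level. Of 14, 3 reached 20 CPM against rods, and 2 of these were higher in ECs in all 5 replicates, beside 26.5% of all genes. They were Slc16a1, the lactate carrier MCT1, at 411 and 129 CPM, and Bsg, its chaperone basigin, at 2228 and 398 CPM. Slc16a3, the lactate carrier MCT4, measured 11.5 CPM in ECs and 40.6 CPM in rods. Both Slc16a1 and Bsg were lower in Tip than in Structural ECs in 5 of 6 replicates, as Slc2a1 was in 6 of 6. Of the pentose phosphate branch, 1 of 5 genes was higher in ECs than in rods in every replicate (Tkt, transketolase, at 64.4 and 13.4 CPM), and none went the same way in all replicates between Tip and Structural ECs. Taldo1, transaldolase, measured 232 and 227 CPM, and Pgls, 6-phosphogluconolactonase, 77.2 and 29.6 CPM. Of pyruvate entry, 1 of 7 was higher in ECs than in rods (Mpc1, a subunit of the mitochondrial pyruvate carrier) and 3 were lower. For all genes the shares against rods were 26.5% higher and 9.81% lower, so 1 of 5 and 1 of 7 are no more than the background. Among the lower, Mpc2, the other subunit of that carrier, measured 107 and 188 CPM and Dld, a subunit of pyruvate dehydrogenase, 66.3 and 128 CPM, while Pdha1 measured 64.9 and 33.9 CPM and was higher in 4 of 5. The only gene of gluconeogenesis at 20 CPM was Pck2, at 33.9 and 12.3 CPM and higher in ECs in 5 of 5.

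Genes of the hypoxia response went both ways between Tip and Structural ECs. Of 13 such genes at 20 CPM, 3 were higher in Tip than in Structural ECs in all 6 replicates and 2 were lower, beside 8.54% and 9.16% of all genes. Ankrd37 was at 378 and 108 CPM, Higd1a at 179 and 143 CPM and Egln1, an oxygen sensor that marks HIF for degradation, at 49.1 and 29.9 CPM. Epas1, which encodes HIF-2 alpha, was lower in Tip ECs at 272 and 468 CPM, and Ddit4, a stress-induced inhibitor of mTORC1, at 82.8 and 232 CPM. In the genotype tests none of the genes in these 5 lists was called in ECs, where 9 other glycolysis genes, 3 transporters, 11 genes of pyruvate entry, 7 of the pentose phosphate branch and 15 hypoxia genes were tested, nor was either of 2 genes of gluconeogenesis. Their median log2 fold changes were 0.00, -0.09, -0.02, -0.09 and 0.10. The hypoxia genes ran from -0.47 to 1.14. By edgeR, 2 of the 15 had an unadjusted p under 0.05, beside 548 of all 9483 genes, and 0 genes of the other lists did.

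Across the 50 sums of at least 10 cells, the genes with the profile most like 9 of the members were found by Pearson's r of log2(CPM + 10) among 7788 genes. The sums share libraries and differ in depth, so r is a description. Slc2a1 was most like Limch1 (r = 0.878) and Nfib (0.848), Pfkfb3 most like Dock4 (0.805) and Mfng (0.790), and Pfkp most like Ndnf (0.80) and Rtn1 (0.770). Hk2 was most like Slc12a5 and Cacna1f (both 0.737), and Pfkl most like Ids (0.616) and Phactr1 (0.611). Aldoa, Pgk1 and Ldha shared Atp1b2, a subunit of the sodium pump, as their closest gene (0.701, 0.661 and 0.815), with H3f3b (0.697), Ndnf (0.658) and Vax2os (0.789) next. Pkm was most like Rufy3 (0.748) and Neurod1 (0.736). Among the members themselves, Aldoa and Ldha had r = 0.666, while Slc2a1 ran against Aldoa (r = -0.688) and Hk2 (r = -0.543).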

How the data were processed

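Retinas of 6 pools (3 per genotype) were profiled by Drop-seq. The authors aligned and counted reads with kb-python on GRCm38 and filtered and clustered cells in Seurat 3, and deposited raw UMI counts per gene and cell with cell type, genotype and replicate labels. The label ECs was read as Structural ECs. All deposited cells were called singlets and held at least 101 genes and at most 9.99% mitochondrial UMIs, and 10 metadata columns were not used.

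UMIs were summed per cell type and replicate, and sums of at least 10 cells were expressed as CPM. Differences between cell types were taken within replicates on log2(CPM + 10), called beyond the spread where the mean exceeded its SD, and given without a test because the types were clustered from these UMIs. Genotypes were compared on the sums with edgeR 4.0.16 (R 4.3.3) quasi-likelihood tests, TMM scaling and Benjamini-Hochberg adjustment over all genes passing a filter on low counts, and with DESeq2 1.42.0 as an alternative. P-values measure the spread between pools of retinas. The tests were tried on simulated data. Intervals and floors cover counting error only. To look for pairing, the mean of each genotype was subtracted per gene from log2(CPM + 10) of ECs, and the remainders were correlated. Remainders of same-numbered replicates of the genotypes correlated at 0.215, -0.0964 and 0.186, and of other-numbered ones at -0.272 to 0.193. These ranges overlap, and the numbers were not used as pairs in the main test. Barcodes shared between libraries of a genotype numbered 0. Tables were made with Python 3.11.15, numpy 2.4.6, scipy 1.17.1 and pandas 2.3.3, and plots with matplotlib 3.10.9. Gene positions follow GENCODE on GRCm38, and promoters follow RefSeq. The annotation used for counting is not given in the sources used here.

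The 10 genes and all lists were chosen with earlier results of these data known. Named genes were the 10 in every cell type, Nos3, genes called by genotype, the 3 of each list with the highest mean in ECs and the 2 most correlated with each member. Other list genes were named after their values were seen, and so were chosen the marker products, with and without Pecam1, and the alternatives of cells without Hbb-bs UMIs and of sums of at least 10000 UMIs. Some results, among them the profiles most like Hk1, are not reported here.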

Additional observations from a re-analysis of the deposited data

How the results depend on the processing

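In ECs and their subtypes, none of the 9 glycolytic genes of the main test was called by genotype under any alternative run. Hk2 and the alternatives in rods and Neurons are not part of this count. Genes called in ECs, Tip, Structural and Proliferative ECs, rods and Neurons numbered 2, 1, 2, 1, 1 and 0. Without the filter on low counts they were 84, 8, 74, 10, 1 and 1. With cells of at least 500 UMIs they were 1, 2, 0 and 1 in the ECs and 5 in Neurons. With DESeq2 they were 2 in Tip ECs and 0 in rods, without Hbb-bs cells 1 in ECs, and without mitochondrial genes 0 in rods. With the replicate block they were 0 in rods, 3 for Proliferative and 11 for Structural ECs, and the replicate numbers share only a number. Leaving out replicates gave 0 to 78, 0 to 25, 0 to 28, 0 to 73, 0 to 2 and 0 to 3, the highest in the ECs without eNOS-/- replicate 3. The cause was not tested.

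Log2 fold changes near 0 changed sign. In ECs, Hk1 went to -0.026 with the replicate block and -0.076 with cells of at least 500 UMIs, Pfkl to 0.0056 without the filter, 0.052 with those cells and 0.017 without Hbb-bs cells, and Pfkfb3 to -0.0025 with cells of at least 500 UMIs. In Tip ECs, Pkm went to -0.041 without Hbb-bs cells, and Ldha to -0.017 with cells of at least 500 UMIs and -0.0075 without Hbb-bs cells. Hk1 in Structural ECs went to 0.0035 without the filter. Aldoa in Proliferative ECs went to 0.038 with DESeq2, 0.020 without the filter and 0.051 with the replicate block.

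Leaving out replicates gave these ranges. In ECs they were -0.12 to 0.075 for Slc2a1, -0.16 to 0.23 for Hk1, -0.11 to 0.12 for Pfkl, -0.077 to 0.25 for Pfkfb3, -0.045 to 0.58 for Aldoa and -0.18 to 0.17 for Pgk1. In Tip ECs they were -0.12 to 0.38 for Pfkp, -0.029 to 0.45 for Aldoa, -0.012 to 0.38 for Pgk1, -0.076 to 0.13 for Pkm and -0.16 to 0.20 for Ldha. In Structural ECs they were -0.24 to 0.11 for Hk1, -0.49 to 0.029 for Pfkl, -0.32 to 0.089 for Pfkfb3, -0.31 to 0.19 for Pgk1 and -0.013 to 0.24 for Pkm. In Proliferative ECs they were -0.12 to 0.094 for Slc2a1, -0.15 to 0.64 for Hk1 and -0.21 to 0.24 for Aldoa.

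Folds between ECs and rods and between Tip and Structural ECs kept their direction. Those of ECs over rods that moved by more than the replicate SD were Hk2, at -6.64 on the log2 scale with cells of at least 500 UMIs, and Pfkp, at -1.75 with no limit on cells per sum. Depth limits the precision in every type outside ECs, and that of Hk2 in ECs. Levels are shares of captured mRNA, so fewer UMIs per cell and a different makeup cannot be told apart.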
